A study of Mus musculus with 15 samples.

Results

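The genes examined here were 9 members of the LIF, gp130 and STAT3 pathway, *Lifr*, *Il6st*, *Jak1*, *Stat3*, *Socs2*, *Socs3*, *Bcl3*, *Pim1* and *Pim3*, chosen by symbol from the 23412 genes listed in the count table, of which 19494 had a count. Leukemia inhibitory factor (LIF) is the cytokine that keeps mouse embryonic stem cells self-renewing in culture. It joins the LIF receptor (*Lifr*) to the shared signalling chain gp130 (*Il6st*), the kinase JAK1 then phosphorylates STAT3, and STAT3 enters the nucleus and turns on target genes. Some of these targets, the SOCS genes, feed back as inhibitors, while others, such as *Bcl3* and the PIM kinases, have been tied to survival and self-renewal.

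The cells were v6.5 male mouse embryonic stem cells grown on gelatin, and polyadenylated RNA was sequenced in 15 libraries, 3 for each of 5 conditions. STAG1 and STAG2 are alternative subunits of cohesin, the ring complex that holds DNA loops and sister chromatids. Wild-type (WT) cells received the siGLO control siRNA (WT siGLO) or an siRNA pool against *Stag1* (WT siStag1), *Stag1*-/- cells received siGLO, and *Stag2*-/- cells received siGLO or the *Stag1* pool (*Stag2*-/- siStag1), in each case at 50 nM and with harvest 48 hours later. All 5 groups therefore went through transfection. Each knockout was a single CRISPR clone, so that a difference between genotypes and a difference between clones cannot be told apart. Nothing in the sources read places the 3 replicates of a condition in separate derivations, and p-values measure only the spread between these libraries.

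Counts on genes ranged from 14982560 to 19070126 per library, with a median of 17700059, and 14508 genes passed the filter on low counts, including all 9 members. The library-size-scaled counts below (normalized counts) are on the scale of the mean library. *Stag2* fell in *Stag2*-/- siGLO (log2 fold change -1.75 ± 0.12, SE, adjusted p = 4.3e-07), and *Stag1* fell with its siRNA in WT cells (-2.28 ± 0.14, adjusted p = 2.6e-07) and in *Stag2*-/- cells (-1.53 ± 0.14, adjusted p = 6.7e-06). *Stag1* in the *Stag1*-/- clone stood at a log2 fold change of -0.09 ± 0.13 (adjusted p = 0.73). That clone carries a small deletion inside 1 exon, so its total *Stag1* count does not check the label. Markers of primitive endoderm, an extraembryonic cell type that arises in such cultures, also moved with genotype: their summed normalized count was 3950 to 4362 in WT siGLO, 329 to 531 in *Stag1*-/- siGLO, 730 to 1166 in *Stag2*-/- siGLO and 863 to 1133 in *Stag2*-/- siStag1. Against WT siGLO 6 of 6 fell in each of these 3 conditions, where 9.93%, 14.4% and 21.3% of all genes tested fell. Their part in the results below was not tested. In these bulk libraries, fewer cells of a type and less RNA per cell cannot be told apart.

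Promoter windows from RefSeq (GRCm38.p6, 250 bases before to 50 after each start) were found for 8 of the 9 genes, with 10 windows in all, and for *Socs2* none was matched. They were searched on both strands for TTCNNNGAA, the palindromic site that STAT dimers bind. The only member with a match was *Socs3*, and 8.3% of the 32851 windows in the table held the letters. The *Socs3* match began 154 bases before the RefSeq start and is shown because *Socs3* is the classical feedback target of STAT3. The capitals mark the match, on the minus strand at chr11:117969502-117969530, inside a stretch that GENCODE M21 annotates as a *Socs3* exon:
Socs3: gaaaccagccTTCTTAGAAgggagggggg

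The starts of *Il6st* and *Lifr* are shown because both receptor genes fell in the *Stag2*-/- conditions described below. The 250 bases before the *Il6st* start (chr13:112463820-112464069, plus strand) held 26 CG dinucleotides, and the 250 bases before the second of 2 RefSeq starts of *Lifr* (chr15:7140292-7140541, plus strand) held 3, against a median of 6 over all windows, 92.1% of which held at least 1. The first *Lifr* window held 43 but overlaps an annotated exon and is not printed. Capitals mark each CG, and no STAT match was present in these letters:
Il6st: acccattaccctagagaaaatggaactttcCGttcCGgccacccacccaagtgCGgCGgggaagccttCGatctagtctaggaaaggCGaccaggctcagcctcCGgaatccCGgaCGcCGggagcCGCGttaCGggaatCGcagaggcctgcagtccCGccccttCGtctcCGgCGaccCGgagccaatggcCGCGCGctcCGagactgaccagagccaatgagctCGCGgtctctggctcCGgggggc
Lifr: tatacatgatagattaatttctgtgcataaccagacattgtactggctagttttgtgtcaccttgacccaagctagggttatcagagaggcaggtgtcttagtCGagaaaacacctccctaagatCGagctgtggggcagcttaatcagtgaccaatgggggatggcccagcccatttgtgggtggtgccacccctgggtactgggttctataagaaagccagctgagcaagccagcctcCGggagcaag

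Per length, *Pim3*, *Socs3* and *Pim1* were the most abundant of the 9 genes and *Socs2* was the least. In WT siGLO, levels in CPM (counts scaled to a fixed library total) per kilobase of exon were 96.7 ± 7.2 for *Pim3* (SD, n = 3, as for the levels that follow), 75.3 ± 19.8 for *Socs3* and 44.2 ± 0.55 for *Pim1*. *Bcl3* stood at 14.6 ± 0.27, *Jak1* at 13.9 ± 1.1, *Lifr* at 12.6 ± 0.60, *Stat3* at 11.1 ± 0.52, *Il6st* at 10.8 ± 0.62 and *Socs2* at 6.3 ± 0.72. Neighbours in this order whose ranges of mean ± SD overlapped were *Pim3* and *Socs3*, *Bcl3* and *Jak1*, *Jak1* and *Lifr*, and *Stat3* and *Il6st*.

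Against WT siGLO, 4 of the 9 genes fell in *Stag2*-/- siGLO (14.4% of all genes tested fell, and 13.9% rose) and 6 of 9 fell in *Stag2*-/- siStag1 (21.3% fell, 22.6% rose). None rose in either. In *Stag1*-/- siGLO the pattern was another one: 2 of 9 rose (10.1% of all genes rose) and none fell (9.93%). With *Stag1* siRNA alone, none of the 9 was called in WT cells (0.248% of all genes were). The median log2 fold change over the 9 genes was 0.07 in *Stag1*-/- siGLO, -0.10 in *Stag2*-/- siGLO, -0.04 in WT siStag1 and -0.47 in *Stag2*-/- siStag1, whereas that over all genes lay between -0.01 and 0.01. These 4 comparisons share their control libraries.

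**Figure D1:**
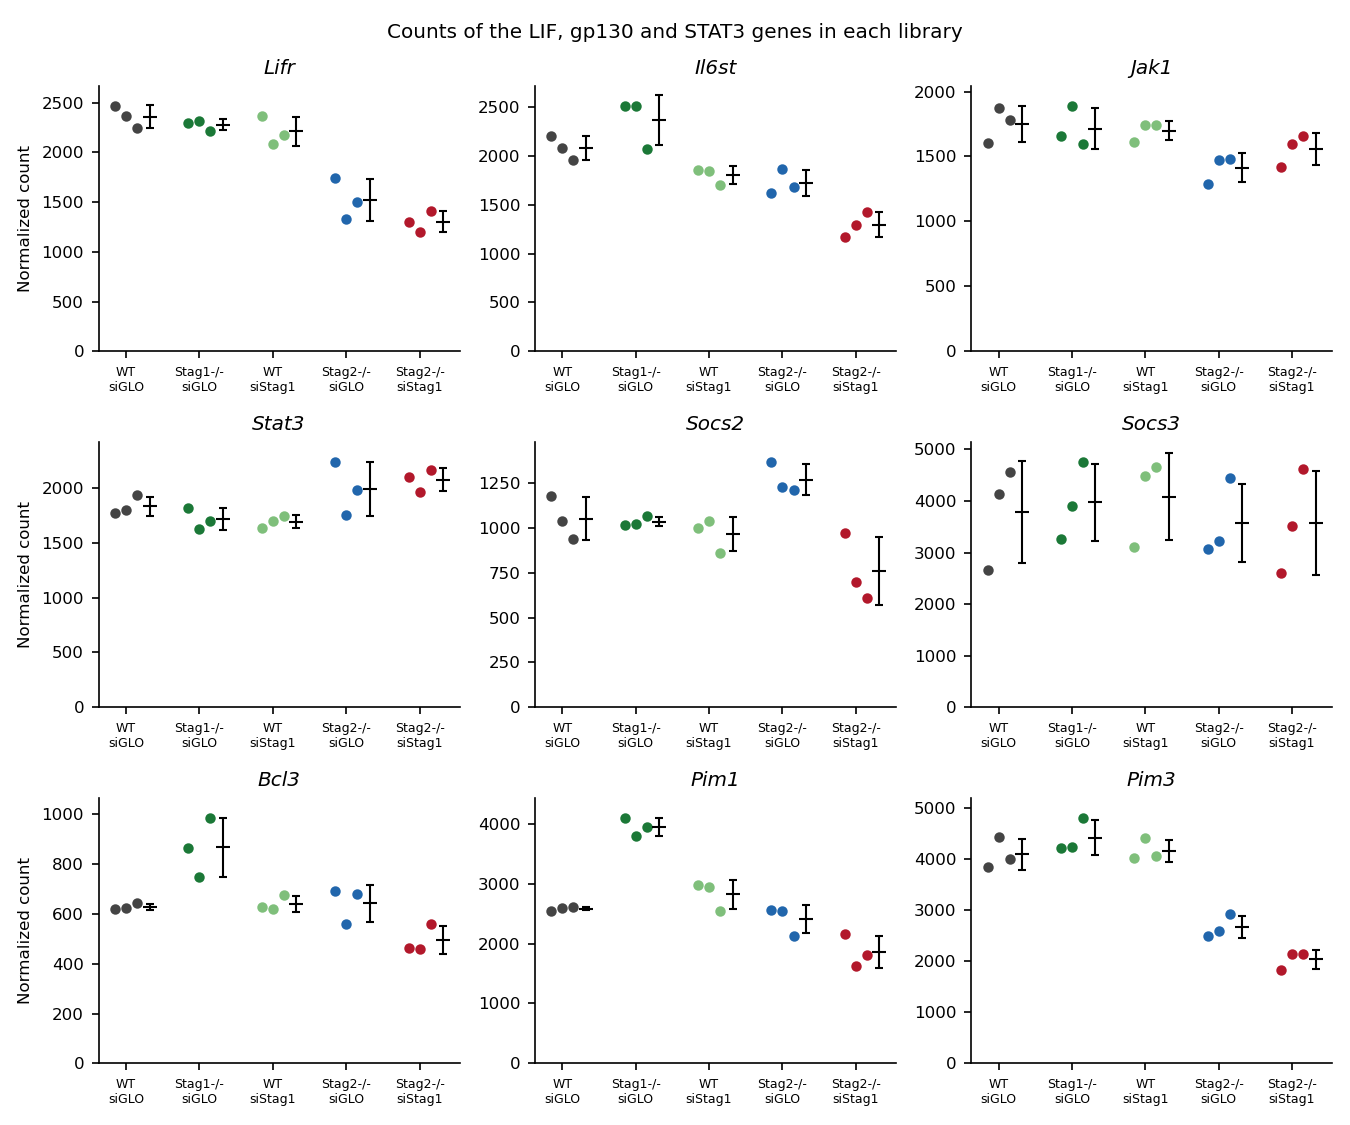
Normalized count (vertical axis, linear and from 0) of each of the 9 genes in the 15 libraries, by condition (horizontal axis). Points are libraries and black bars are the mean and SD of 3. *Lifr* lay between 2245 and 2471 in WT siGLO and between 1203 and 1747 in both *Stag2*-/- conditions.

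The LIF receptor gene *Lifr* (ENSMUSG00000054263, chr15:7090614-7197489, plus strand) was lower in both *Stag2*-/- conditions, at 0.645 and 0.553 times its level in WT siGLO. Its normalized counts were 2471, 2369 and 2245 in WT siGLO, 2296, 2321 and 2218 in *Stag1*-/- siGLO and 2371, 2088 and 2179 in WT siStag1. They were 1747, 1329 and 1497 in *Stag2*-/- siGLO and 1304, 1203 and 1410 in *Stag2*-/- siStag1. All 6 *Stag2*-/- libraries lay below all 9 others, while the 2 *Stag2*-/- conditions overlapped. The log2 fold change against WT siGLO was -0.63 ± 0.10 in *Stag2*-/- siGLO (adjusted p = 0.00030) and -0.85 ± 0.10 in *Stag2*-/- siStag1 (adjusted p = 6.3e-06). In *Stag1*-/- siGLO it was -0.05 ± 0.10 (adjusted p = 0.78).

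The gp130 gene *Il6st* (ENSMUSG00000021756, chr13:112464070-112510086, plus strand), the chain shared by the whole IL-6 cytokine family, fell in 2 steps. It was counted at 2200, 2083 and 1960 in WT siGLO, at 1616, 1869 and 1678 in *Stag2*-/- siGLO and at 1168, 1290 and 1425 in *Stag2*-/- siStag1. These 3 conditions did not overlap. The log2 fold change against WT siGLO was -0.27 ± 0.10 in *Stag2*-/- siGLO (adjusted p = 0.058) and -0.69 ± 0.10 in *Stag2*-/- siStag1 (adjusted p = 6.1e-05). The smaller of the 2 calls was lost when any of 4 single libraries was left out, with adjusted p = 0.157 without *Stag2*-/- siGLO replicate 1, 0.138 without its replicate 3, 0.149 without WT siGLO replicate 1 and 0.137 without WT siGLO replicate 2. In WT siStag1 the counts were 1859, 1850 and 1699, below every WT siGLO library, with a log2 fold change of -0.21 ± 0.10 that was not called (adjusted p = 0.78). In *Stag1*-/- siGLO they were 2509, 2515 and 2069, which overlapped WT siGLO (0.18 ± 0.10, adjusted p = 0.24, and 0.082 without *Stag1*-/- siGLO replicate 3).

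The kinase gene *Jak1* (ENSMUSG00000028530, chr4:101152367-101265282, minus strand) was counted at 1602, 1872 and 1781 in WT siGLO and at 1284, 1476 and 1478 in *Stag2*-/- siGLO. The 2 groups did not overlap, and *Jak1* fell (log2 fold change -0.31 ± 0.09, adjusted p = 0.030). The call was lost without *Stag2*-/- siGLO replicate 1 (adjusted p = 0.107) or WT siGLO replicate 2 (adjusted p = 0.131). In *Stag2*-/- siStag1 the counts of 1419, 1594 and 1661 overlapped WT siGLO, and the log2 fold change was -0.17 ± 0.09 (adjusted p = 0.18, and 0.095 without WT siGLO replicate 1). It was also called with the replicate number as a block (adjusted p = 0.057). Exons of *Jak1* overlap those of *Raver2* on the other strand, and since the strand setting of the counting was not given, their reads may not be fully separated.

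*Stat3* (ENSMUSG00000004040, chr11:100885098-100939540, minus strand), the transcription factor of the pathway, was counted at 1772, 1799 and 1933 in WT siGLO, at 2240, 1752 and 1980 in *Stag2*-/- siGLO and at 2104, 1960 and 2161 in *Stag2*-/- siStag1. The last group lay above every WT siGLO library, but neither comparison was called (0.12 ± 0.09, adjusted p = 0.37, and 0.18 ± 0.09, adjusted p = 0.13). The second was called when counts were scaled by library size alone (0.20, adjusted p = 0.090) and with the replicate number as a block (0.18, adjusted p = 0.066). Among the 8 comparisons of this study *Stat3* was called in 1, *Stag2*-/- siStag1 against WT siStag1, where it was counted at 1632, 1698 and 1748 (0.29 ± 0.09, adjusted p = 0.020). Exons of *Stat3* overlap those of *Stat5a* on the other strand, which had a log2 fold change of -0.68 in that comparison.

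The feedback inhibitor gene *Socs2* (ENSMUSG00000020027, chr10:95385362-95417180, minus strand), which encodes a SOCS-box protein best known for restraining growth hormone signalling, was counted at 1176, 1040 and 938 in WT siGLO, at 1369, 1227 and 1209 in *Stag2*-/- siGLO and at 973, 698 and 609 in *Stag2*-/- siStag1. The middle group lay above WT siGLO and the last overlapped it with 1 library. Its log2 fold change against WT siGLO was 0.27 ± 0.14 in *Stag2*-/- siGLO (adjusted p = 0.18), which was called with the replicate number as a block (0.27 ± 0.11, adjusted p = 0.058). In *Stag2*-/- siStag1 *Socs2* fell (log2 fold change -0.47 ± 0.14, adjusted p = 0.015).

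*Socs3* (ENSMUSG00000053113, chr11:117966079-117970047, minus strand), which binds gp130 and blocks JAK1, was not called in any of the 8 comparisons without such a block, and its libraries spread more by replicate number than by condition. It was counted at 2666, 4140 and 4560 in WT siGLO, at 3264, 3894 and 4763 in *Stag1*-/- siGLO and at 3116, 4489 and 4655 in WT siStag1. In *Stag2*-/- siGLO the counts were 3065, 3222 and 4441, and in *Stag2*-/- siStag1 they were 2608, 3515 and 4621. In all 5 conditions the library numbered 1 was the lowest and the library numbered 3 the highest, and every pair of conditions overlapped. The 95% interval of the log2 fold change in *Stag2*-/- siStag1 against WT siGLO ran from -0.53 to 0.37, a width that includes the spread by replicate number. With the block that log2 fold change was -0.08 ± 0.09 (adjusted p = 0.47). With the replicate number as a block *Socs3* was called in 1 comparison, *Stag2*-/- siStag1 against WT siStag1 (-0.21 ± 0.09, adjusted p = 0.079). Judged over all genes, the numbers were not taken as a pairing in these comparisons. The counts of *Socs3* followed the numbers in every condition.

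**Figure D2:**
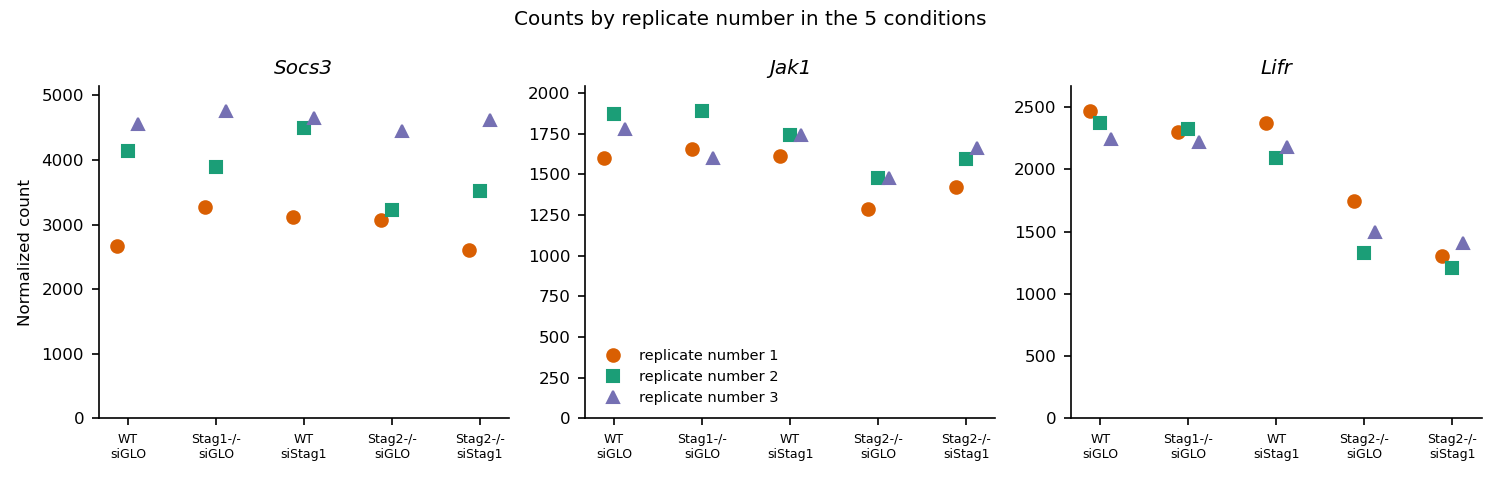
Normalized count (vertical axes, linear and from 0) of *Socs3*, *Jak1* and *Lifr* in the 5 conditions (horizontal axes), with the replicate number as colour and shape. In each condition *Socs3* was lowest in the library numbered 1 and highest in that numbered 3, and *Jak1* was below its condition's mean in that numbered 1 in 5 of 5 conditions.

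*Pim3* (ENSMUSG00000035828, chr15:88862186-88865726, plus strand), a serine/threonine kinase of the PIM family, had the largest change of the 9 genes against WT siGLO, in *Stag2*-/- siStag1. Its normalized counts were 3848, 4428 and 3986 in WT siGLO, 4203, 4236 and 4804 in *Stag1*-/- siGLO and 4010, 4407 and 4056 in WT siStag1. They were 2498, 2585 and 2914 in *Stag2*-/- siGLO and 1824, 2141 and 2135 in *Stag2*-/- siStag1. The 3 conditions with *Stag2* overlapped each other, and each of the 2 without it stood below them and apart from the other. The log2 fold change against WT siGLO was -0.62 ± 0.09 (adjusted p = 0.00025) and -1.01 ± 0.09 (adjusted p = 7.4e-07), the latter a ratio of 0.497. *Pim3* and *Lifr* are on the same chromosome, where the median log2 fold change of tested genes within 5 Mb lay between -0.04 and 0.09 for both genes in the 4 comparisons with WT siGLO.

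*Pim1* (ENSMUSG00000024014, chr17:29490753-29496112, plus strand), the relative of *Pim3* that STAT3 induces in many cell types, rose in the *Stag1* clone and fell with dual depletion. It was counted at 2554, 2590 and 2619 in WT siGLO, at 4106, 3799 and 3955 in *Stag1*-/- siGLO and at 2154, 1634 and 1808 in *Stag2*-/- siStag1. These groups did not overlap, and the log2 fold changes were 0.61 ± 0.10 (adjusted p = 0.00071) and -0.47 ± 0.10 (adjusted p = 0.0019). In *Stag2*-/- siGLO, with 2555, 2538 and 2135, the log2 fold change was -0.10 ± 0.10 (adjusted p = 0.51), and in WT siStag1, with 2986, 2940 and 2543, it was 0.13 ± 0.10 (adjusted p = 1.0). The difference between the *Stag1*-/- clone and *Stag1* siRNA was not tested. Its exons overlap the antisense gene *Gm26885*, which is not listed in the count table.

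*Bcl3* (ENSMUSG00000053175, chr7:19808462-19822770, minus strand), a nuclear partner of NF-kappaB subunits, had the same 2 calls. It was counted at 622, 623 and 643 in WT siGLO, at 867, 748 and 987 in *Stag1*-/- siGLO and at 463, 461 and 561 in *Stag2*-/- siStag1, again without overlap. The log2 fold changes were 0.46 ± 0.12 (adjusted p = 0.014) and -0.35 ± 0.12 (adjusted p = 0.031), and the second was lost without *Stag2*-/- siStag1 replicate 2 (adjusted p = 0.113). In *Stag1*-/- siGLO the median over the 97 tested genes within 5 Mb of *Bcl3* was 0.22 on the log2 scale, against 0.05 over chromosome 7. The part of the region in the rise of *Bcl3* was not tested. The exons of *Bcl3* overlap the antisense gene *Gm16175*, which is not listed in the count table.

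**Figure D3:**
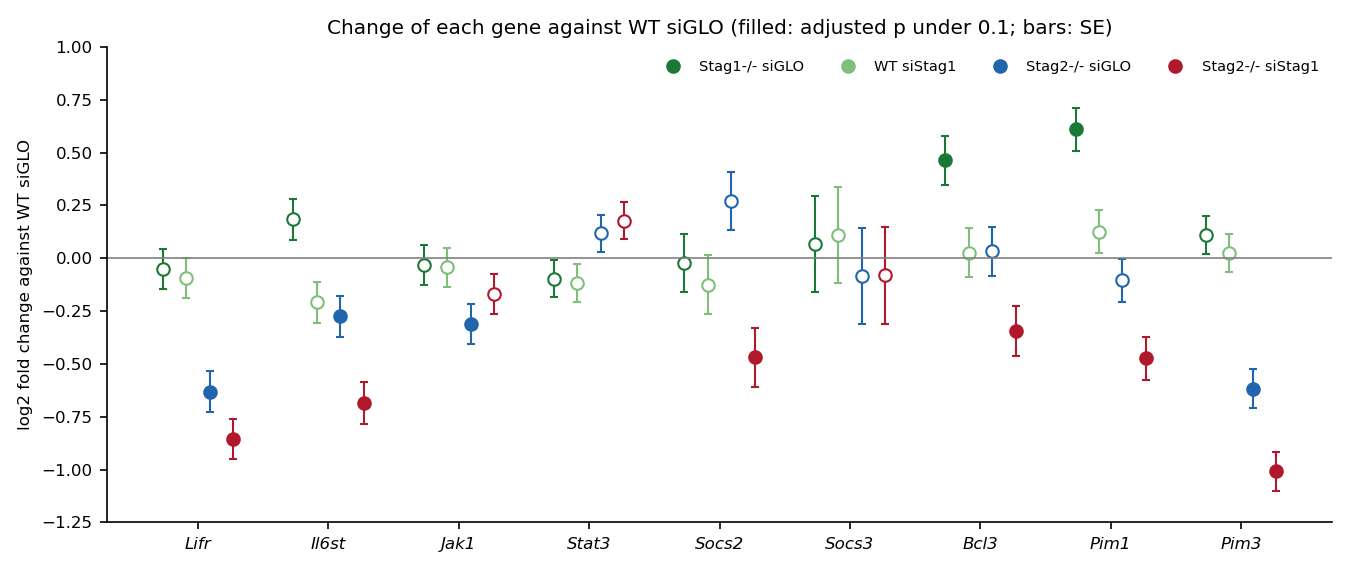
Log2 fold change against WT siGLO (vertical axis) of each gene (horizontal axis) in the 4 other conditions, with bars for the SE. Filled points had an adjusted p under 0.1. Filled points lie above 0 for *Bcl3* and *Pim1* in *Stag1*-/- siGLO and below 0 for 4 genes in *Stag2*-/- siGLO and 6 genes in *Stag2*-/- siStag1.

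The 2 clones were also set against each other. Each genotype is a single clone, so loss of STAG1 or STAG2 and other differences between the clones cannot be told apart here. Of the 9 genes, 6 were higher in *Stag1*-/- siGLO than in *Stag2*-/- siGLO (12.7% of all genes were) and none was lower (12.9%). The largest differences were those of *Pim3* (0.73 ± 0.09, adjusted p = 7.2e-05), *Pim1* (0.71 ± 0.10, adjusted p = 0.00019) and *Lifr* (0.58 ± 0.10, adjusted p = 0.00064). *Il6st* (0.46 ± 0.10, adjusted p = 0.0041), *Bcl3* (0.43 ± 0.12, adjusted p = 0.018) and *Jak1* (0.28 ± 0.09, adjusted p = 0.051) followed. The groups of all 6 genes did not overlap, nor did those of *Socs2*, and the same held for 31% of all genes tested. The *Jak1* call was lost without *Stag1*-/- siGLO replicate 2 (adjusted p = 0.206) or *Stag2*-/- siGLO replicate 1 (adjusted p = 0.171), and with only the 6 libraries compared (adjusted p = 0.127). *Stat3* (-0.21 ± 0.09, adjusted p = 0.11) and *Socs2* (-0.29 ± 0.14, adjusted p = 0.16) pointed the other way without being called. With the replicate number as a block both were lower in *Stag1*-/- siGLO, with adjusted p = 0.045 for *Stat3* and 0.052 for *Socs2*. *Stat3* was also called without *Stag1*-/- siGLO replicate 1 (adjusted p = 0.093) or *Stag2*-/- siGLO replicate 2 (adjusted p = 0.041), by DESeq2 (adjusted p = 0.098) and when counts were scaled by library size alone (adjusted p = 0.081).

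Whether depletion of STAG1 mattered more when STAG2 was missing was addressed by giving the same siRNA to *Stag2*-/- and WT cells. In *Stag2*-/- cells, 5 of the 9 genes fell with siStag1 (3.39% of all genes fell) and none rose (2.98%). *Socs2* fell most (-0.74 ± 0.14, adjusted p = 0.0060), followed by *Il6st* at -0.41 ± 0.10 (adjusted p = 0.027), *Pim3* at -0.39 ± 0.09 (adjusted p = 0.025), *Bcl3* at -0.38 ± 0.12 (adjusted p = 0.093) and *Pim1* at -0.37 ± 0.10 (adjusted p = 0.056). The groups did not overlap for *Socs2*, *Il6st* and *Pim3*, and overlapped for *Bcl3* and *Pim1*. Of all genes tested, 19.3% had groups that did not overlap. The log2 fold change of *Lifr*, already low, was -0.22 ± 0.10 (adjusted p = 0.25). All 5 calls rest on the spread shared with the other conditions: with only the 6 libraries compared, their log2 fold changes lay between -0.75 and -0.38, none was called, and adjusted p ran from 0.12 for *Socs2* to 0.25 for *Pim1*.

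Leaving out single libraries also ended calls of this comparison. *Il6st* was lost without *Stag2*-/- siGLO replicate 2 (adjusted p = 0.109) and *Pim3* without *Stag2*-/- siGLO replicate 3 (adjusted p = 0.106). *Pim1* was lost without *Stag2*-/- siGLO replicate 1 or 2 or *Stag2*-/- siStag1 replicate 2 or 3 (adjusted p = 0.155 to 0.234). *Bcl3* was lost without *Stag2*-/- siGLO replicate 1 or 3 or *Stag2*-/- siStag1 replicate 1 or 2 (adjusted p = 0.152 to 0.287), and when counts were scaled by library size alone (adjusted p = 0.145). *Socs2* stayed called without each of the 6.

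**Figure D4:**
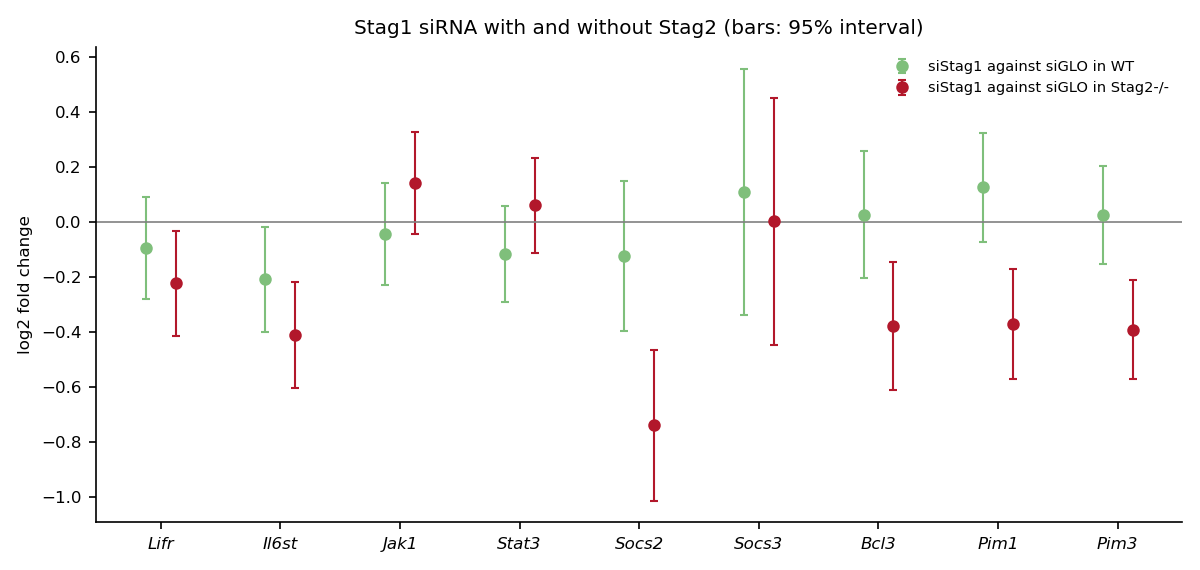
Log2 fold change of siStag1 against siGLO (vertical axis) for each gene (horizontal axis) in WT and in *Stag2*-/- cells, with 95% intervals from the SE. The interval of *Socs2* runs from -0.40 to 0.15 in WT cells and from -1.01 to -0.47 in *Stag2*-/- cells.

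In WT cells none of the 9 genes was called by edgeR or by DESeq2 after siStag1. One of the 9, *Il6st*, had an unadjusted p under 0.05 by edgeR, as did 922 of the 14508 genes tested. The difference between the 2 responses was tested as an interaction. *Stag1* itself had a log2 fold change of -2.28 ± 0.14 in WT and -1.53 ± 0.14 in *Stag2*-/- cells. By this test that difference was not called (0.75 ± 0.19, adjusted p = 0.25). Without a replicate block, none of the 9 genes was called by either tool (0.159% of all genes were called by edgeR). The smallest adjusted p were those of *Pim1* (-0.49 ± 0.14, adjusted p = 0.39), *Pim3* (-0.42 ± 0.13, adjusted p = 0.46), *Socs2* (-0.61 ± 0.20, adjusted p = 0.48) and *Bcl3* (-0.40 ± 0.17, adjusted p = 0.73), all with the lower response in *Stag2*-/- cells. With the replicate number as a block, which pairs the libraries of both siRNA comparisons, the interaction was called for *Socs2* (-0.63, adjusted p = 0.081), *Pim1* (-0.49, adjusted p = 0.086) and *Pim3* (-0.42, adjusted p = 0.093). That fit called it for 138 of the 14508 genes tested. Without *Stag2*-/- siStag1 replicate 1 the interaction was called for *Socs2* (-0.83, adjusted p = 0.041) and *Pim1* (-0.61, adjusted p = 0.071).

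The same *Stag2*-/- clone was also compared with WT cells among cells that received siStag1. *Stag1* itself was higher in *Stag2*-/- siStag1 than in WT siStag1 (0.65 ± 0.14, adjusted p = 0.0023), so the depletion was not equal. Against WT siStag1, 6 of the 9 genes were lower in *Stag2*-/- siStag1 (18.1% of all genes were) and 1 was higher (19.4%). *Pim3* was lower by a log2 fold change of -1.03 ± 0.09 (adjusted p = 1.1e-06), *Lifr* by -0.76 ± 0.10 (adjusted p = 2.9e-05), *Pim1* by -0.60 ± 0.10 (adjusted p = 0.00042) and *Il6st* by -0.48 ± 0.10 (adjusted p = 0.0018). *Bcl3* (-0.37 ± 0.12, adjusted p = 0.026) and *Socs2* (-0.34 ± 0.14, adjusted p = 0.075) were the other 2, and *Stat3* was the gene that was higher. The *Socs2* call was lost without *Stag2*-/- siStag1 replicate 2 or 3 or WT siStag1 replicate 1 or 2 (adjusted p = 0.161 to 0.305), and with only the 6 libraries compared (adjusted p = 0.139). *Stag2*-/- siStag1 libraries also enter the comparison with WT siGLO.

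The rest of the pathway was described from lists of ligands, receptors, kinases, inhibitors, adaptors and target genes. The counts for *Stag2*-/- siStag1 against WT siGLO that follow stand beside 21.3% of all genes that fell and 22.6% that rose. Among 8 IL-6 family ligands, 4 passed the filter, and *Lif* itself, at 101.5 ± 12.3 normalized counts in WT siGLO (SD, n = 3), was not called in any comparison with WT siGLO but was higher in *Stag1*-/- siGLO than in *Stag2*-/- siGLO (0.87 ± 0.21, adjusted p = 0.010). The ligand gene *Osm* (oncostatin M) was low, at 17.4 ± 2.2 normalized counts in WT siGLO, and fell in *Stag1*-/- siGLO (-1.24 ± 0.47, adjusted p = 0.092, a call lost without any 1 of the 6 libraries, adjusted p = 0.114 to 0.219) and in *Stag2*-/- siStag1 (-1.67 ± 0.50, adjusted p = 0.015). Among 6 other receptor chains 5 were tested, and in *Stag2*-/- siStag1 2 rose and 1 fell. *Cntfr*, the receptor of ciliary neurotrophic factor, which also signals through gp130 and LIFR, rose by a log2 fold change of 2.44 ± 0.11 (adjusted p = 8.0e-10), from 308.5 to 1676 normalized counts. *Il27ra*, which pairs with gp130 for interleukin 27, fell (log2 fold change -2.18 ± 0.38, adjusted p = 0.00032). Its counts were low, at 73.9 ± 12.4 normalized counts in WT siGLO and 16.3 ± 5.5 in *Stag2*-/- siStag1 (SD, n = 3).

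Among 9 other Janus kinases and STATs, 5 fell and 1 rose in *Stag2*-/- siStag1, with a median log2 fold change of -0.42 (over all genes 21.3% fell and 22.6% rose). *Tyk2*, which like JAK1 and JAK2 associates with gp130, fell (log2 fold change -0.62 ± 0.11, adjusted p = 0.00041), and *Stat2* fell as well (-0.86 ± 0.25, adjusted p = 0.013). *Jak2* rose in *Stag1*-/- siGLO (0.56 ± 0.15, adjusted p = 0.021, and 0.105 without *Stag1*-/- siGLO replicate 2). Among 13 other inhibitors, 3 fell and 2 rose in *Stag2*-/- siStag1 (median -0.04), shares near those over all genes. *Socs1*, a relative of *Socs3*, was up (0.57 ± 0.16, adjusted p = 0.012) and the phosphatase gene *Ptpn6* was down (-0.44 ± 0.11, adjusted p = 0.0045). Of 7 adaptors and kinases that link gp130 to other routes, 2 fell and 1 rose (median 0.03), again near the shares over all genes. The adaptor *Shc1* was up (0.39 ± 0.09, adjusted p = 0.0039).

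**Figure D5:**
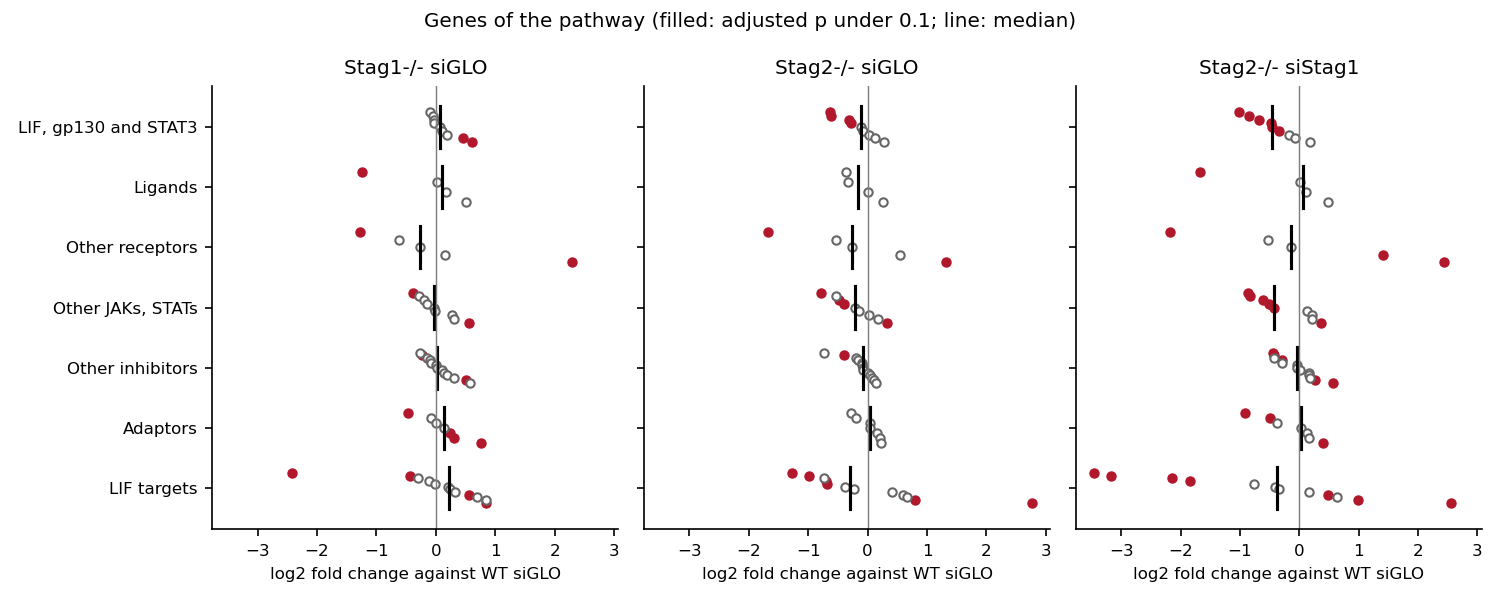
Log2 fold change against WT siGLO (horizontal axis) of each tested gene of the pathway lists (vertical axis) in 3 conditions. Red points had an adjusted p under 0.1 and black lines are medians. The median of the 9 genes lay at 0.07, -0.10 and -0.47 in the panels from left to right.

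Among 12 further genes listed as LIF targets, most of them transcription factor genes, changes ran both ways. In *Stag2*-/- siStag1, 4 fell and 3 rose (median -0.38), against 21.3% and 22.6% of all genes. *Tfcp2l1*, a STAT3 target of naive pluripotency, fell from 7740 ± 281 normalized counts in WT siGLO (SD, n = 3) to 705 ± 28 (log2 fold change -3.46 ± 0.15, adjusted p = 7.3e-10). *Tbx3* (-3.17 ± 0.14, adjusted p = 7.3e-10) and *Klf4* (-2.15 ± 0.16, adjusted p = 8.5e-08) fell too. In *Stag2*-/- siGLO 4 of the 12 fell and 2 rose (median -0.30), against 14.4% and 13.9% of all genes. *Pim2*, the third PIM kinase gene, rose in *Stag2*-/- siGLO (2.77 ± 0.24, adjusted p = 2.5e-06), from 620 ± 109 to 4216 ± 1574 normalized counts, where *Pim3* fell and *Pim1* was not called. *Tfcp2l1* and *Tbx3* also fell with siStag1 in WT cells (-0.71 ± 0.13, adjusted p = 0.048, and -0.87 ± 0.13, adjusted p = 0.023), calls that were lost without any 1 of the 6 libraries for *Tfcp2l1* (adjusted p up to 0.294) and without WT siStag1 replicate 1 or 2 for *Tbx3*.

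Pluripotency markers were present in every condition. Their summed normalized count was 82793 to 89245 in WT siGLO, 65589 to 77784 in *Stag1*-/- siGLO, 76088 to 79824 in WT siStag1, 59668 to 78321 in *Stag2*-/- siGLO and 40901 to 55107 in *Stag2*-/- siStag1. In the last group 6 of 7 fell, with *Esrrb* at -2.64 ± 0.15 (adjusted p = 5.1e-09), *Zfp42* at -1.74 ± 0.14 (adjusted p = 2.3e-07) and *Nanog* at -1.61 ± 0.35 (adjusted p = 0.0019). Of 5 neural markers 3 rose and 1 fell there, with summed counts of 2370 to 4291 against 1669 to 1902 in WT siGLO, and *Pax6*, a neural transcription factor, rose from 51.0 to 572 normalized counts. The marker that fell was *Olig2*, from 561 to 190 (-1.56 ± 0.15, adjusted p = 9.0e-07), and *Sox1*, at 440 ± 93 and 254 ± 216 (SD, n = 3), was not called (adjusted p = 0.26). In *Stag2*-/- siGLO 3 neural markers also rose and 1 fell, with summed counts of 1869 to 3574. Of the 7 pluripotency markers 3 fell in that condition, where 14.4% of all genes fell and 13.9% rose. Of 5 trophoblast markers 4 were tested, 3 rose in *Stag1*-/- siGLO, where 10.1% of all genes rose (summed counts of 3172 to 5454 against 1526 to 2232), and *Krt8*, a keratin of simple epithelia, was the most abundant of them. For 5 markers of primitive streak and mesoderm, summed counts were 137 to 160 in *Stag2*-/- siStag1, 204 to 497 in *Stag2*-/- siGLO and 220 to 331 in WT siGLO. Of the 4 tested, 1 fell and 1 rose in each *Stag2*-/- condition (in *Stag2*-/- siGLO 14.4% of all genes fell and 13.9% rose). *Eomes* was lower in *Stag2*-/- siStag1 (-1.44 ± 0.25, adjusted p = 0.00031), while *T*, brachyury, was higher there (2.02 ± 0.64, adjusted p = 0.021) and in *Stag2*-/- siGLO (adjusted p = 0.00052), with 9.1 ± 2.2 normalized counts in WT siGLO and 128 ± 123 in *Stag2*-/- siGLO (SD, n = 3). Without *Stag2*-/- siGLO replicate 2 the log2 fold change of *T* in that condition was 2.66 (adjusted p = 0.0016). The 7 fibroblast markers summed to 288 to 646 over all conditions, and in WT siGLO *Col1a1* stood at 186, *Thy1* at 134 and *Col1a2* at 102 normalized counts while *Dcn* and *Lum* were at 0. *Dcn* stood at 8.1 ± 1.5 in *Stag2*-/- siStag1 (SD, n = 3). Of the 4 tested, 1, *Col3a1*, was called higher in *Stag2*-/- siGLO (2.10 ± 0.85, adjusted p = 0.092) and in *Stag2*-/- siStag1 (1.98 ± 0.85, adjusted p = 0.081). Both calls were lost without replicate 1 of the same condition (0.61, adjusted p = 0.66, and 0.65, adjusted p = 0.59) or without any 1 of the WT siGLO libraries (adjusted p = 0.101 to 0.212). The part of these markers in the changes of the 9 genes was not tested.

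Members also had neighbours in pattern among all genes. Over the 15 libraries, which share conditions and replicate numbers, the gene whose log2 normalized counts followed *Pim3* most closely was *Rab27a* (Pearson's r = 0.975), that for *Lifr* was *Fam129a* (0.971), that for *Il6st* was *Itga9* (0.960) and that for *Pim1* was *Bcam* (0.960), each among 11529 genes. *Jak1* was most like *Ppp1r3f* (0.944), *Socs2* like *Ung* (0.901), *Bcl3* like *Pga5* (0.895) and *Socs3* like *H2afy* (0.890).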

How the data were processed

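Polyadenylated RNA of 15 libraries was aligned with STAR to mm10 per the labels and the study's methods, and the authors deposited raw counts of reads per gene, 1 table per library. The annotation, strand setting and counter options were not given in the sources used here. The 4 summary lines of each table (unmapped, multimapped, outside genes, ambiguous; 19.8% to 23.4% of all) were left out. Counts were fitted with edgeR 4.0.16 in R 4.3.3: genes were filtered by expression (minimum count 10, minimum total 15), scaled by TMM, and tested by the two-sided quasi-likelihood test with 1 coefficient per group over all 15 libraries. P-values were adjusted by Benjamini-Hochberg over 14508 genes, and an adjusted p under 0.1 was called. SE are from the fold change and its F statistic, and 95% intervals are 1.96 SE on either side. Normalized counts are counts over the TMM-scaled library size, times the mean of these sizes. An exact permutation test of 3 against 3 libraries cannot give a p under 0.1 and was not used for calls.

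The counts in a library gave a floor, at 3 counts, of 0.157 to 0.200 CPM. No 2 libraries of a condition agreed within sampling noise (chi-square over degrees of freedom of 4.5 to 25.2 in 15 pairs). The replicate number is in the labels. Deviations from the group means correlated above 0.1 in all 3 same-numbered pairs of 5 comparisons, and not in *Stag2*-/- siStag1 against WT siGLO (lowest r = 0.05) or against WT siStag1 (lowest r = -0.09). The block on replicate number was treated as a pairing in the 5. The members and lists were chosen with earlier results of these data known. Genes named outside the 9 were those of each list called against WT siGLO, with the largest change first, at most 4 per list and a mean normalized count of at least 50, plus *Stag1*, *Stag2*, and for each of the 9 genes the tested gene with the highest correlation. *Lif*, *Osm*, *T*, *Stat5a*, *Sox1* and the fibroblast markers were named after their values were seen. *Il27ra* met the rules in *Stag1*-/- siGLO but not the count limit in *Stag2*-/- siStag1, for which its value is given. Positions are from GENCODE M21 on mm10, and exon lengths are unions of its exons. In counts simulated from these libraries for *Stag2*-/- siStag1 against WT siGLO, 187 of 200 genes changed 2-fold were recovered among 14302. For the interaction 156 of 200 were recovered. Most changes of the 9 genes were smaller than 2-fold, and recovery at such sizes was not simulated. Alternatives were DESeq2 1.42.0, other scalings and filters, the libraries compared alone, the replicate block, a stricter threshold and each library left out. Values of some other genes that these rules named are not reported here.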

Additional observations from a re-analysis of the deposited data

Results flagged for a closer look

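The response to siStag1 differed between *Stag2*-/- and WT cells by the interaction test for 23 of all genes, and 4 of these were in the lists used here, all with the stronger fall in *Stag2*-/- cells. The difference of the 2 log2 fold changes was -1.76 ± 0.19 (SE) for *Tfcp2l1* (adjusted p = 0.00070), -1.49 ± 0.20 for *Esrrb* (adjusted p = 0.0040), -1.02 ± 0.18 for *Tbx3* (adjusted p = 0.044) and -1.11 ± 0.22 for *Klf4* (adjusted p = 0.068). The response of *Klf4* was -0.35 ± 0.15 in WT and -1.46 ± 0.16 in *Stag2*-/- cells, and that of *Tfcp2l1* was -0.71 ± 0.13 and -2.47 ± 0.14. The interaction of *Tbx3* was not called without WT siGLO replicate 2 or WT siStag1 replicate 1 or 3 (adjusted p up to 0.169), and that of *Klf4* was lost under 9 of 12 fits that left out a library (adjusted p up to 0.233). *Tfcp2l1* and *Esrrb* were called in all 12.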

How the results depend on the processing

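Of 576 fold changes of the 9 genes under 8 alternatives other than leaving out a library, 545 kept their direction and side of the threshold, 13 lost and 12 gained a call, and 6 changed sign. With only the libraries compared, the count of members called for siStag1 in *Stag2*-/- cells was 0 in place of 5, and at an adjusted p under 0.05 it was 3. With the replicate block the count for the interaction was 3 in place of 0 (*Socs2*, *Pim1* and *Pim3*, adjusted p = 0.081 to 0.093), and that over all genes was 138 in place of 23. The block also gained *Jak1* (adjusted p = 0.057) and *Stat3* (0.066) in *Stag2*-/- siStag1 against WT siGLO and *Socs3* (0.079) against WT siStag1. In these comparisons the numbers were not taken as a pairing, judged over all genes. Beside the calls given above the block changed no other. The causes were not tested.

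The log2 fold change of *Socs3* for siStag1 in *Stag2*-/- cells was 0.0021 and turned to -0.0029 under DESeq2, -0.0030 under its size factors, -0.018 with no filter, -0.0045 with 10 counts in every library, -0.011 with the libraries compared alone and -0.019 with the block. Leaving out a library gave 2 to 3 members called in *Stag1*-/- siGLO, 2 to 4 in *Stag2*-/- siGLO, 0 to 0 in WT siStag1, 5 to 7 in *Stag2*-/- siStag1, 5 to 7 between the clones, 3 to 4 for siStag1 in *Stag2*-/- cells, 6 to 7 for *Stag2*-/- among siStag1 cells and 0 to 2 for the interaction. It turned the sign of uncalled values: *Socs3* ran from -0.13 to 0.22 in *Stag1*-/- siGLO, -0.28 to 0.071 in *Stag2*-/- siGLO, -0.31 to 0.10 in *Stag2*-/- siStag1, -0.090 to 0.27 in WT siStag1, -0.22 to 0.19 for siStag1 in *Stag2*-/- cells and -0.33 to 0.090 in the interaction. *Jak1* ran from -0.11 to 0.020 in *Stag1*-/- siGLO and -0.10 to 0.0074 in WT siStag1, *Socs2* from -0.098 to 0.066 in *Stag1*-/- siGLO, *Bcl3* from -0.023 to 0.12 in *Stag2*-/- siGLO and -0.013 to 0.053 in WT siStag1, *Pim3* from -0.019 to 0.087 in WT siStag1 and *Stat3* from -0.025 to 0.15 for siStag1 in *Stag2*-/- cells.

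Counts over all genes moved by over 1.5 times in some fits. In *Stag1*-/- siGLO 2907 became 4443 with the block, and between the clones 3722 became 2406 with the libraries compared alone. For siStag1 in WT cells 36 became 131 under DESeq2, 126 with the libraries compared alone, 236 with the block and 22 at 0.05. For siStag1 in *Stag2*-/- cells 924 became 224, 2049 and 548 under the last 3 of these. For the interaction 23 became 102 under DESeq2, 14 with the libraries compared alone and 138 with the block. Leaving out a library gave 416 to 1484 for siStag1 in *Stag2*-/- cells, 1 to 15 in WT cells and 13 to 76 for the interaction, and without WT siGLO replicate 2 it gave 2524 in place of 4110 in *Stag2*-/- siGLO and 1915 in *Stag1*-/- siGLO. Around *Bcl3*, the median of neighbours in *Stag1*-/- siGLO was 0.25 within 2 Mb and 0.15 within 10 Mb. Depth does not limit the 9 genes, whose lowest normalized count was 461.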
